A study of Mus musculus with 12 samples.

Results

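Bone marrow-derived macrophages given CS-PA/CNP alone were compared with the same kind of cells given PgLPS alone. The comparison used 6 of the 12 libraries of the study, 3 per agent, chosen by the treatment in the sample labels, and it covered every gene with enough reads to test. Per the labels, all cells were primary, wild type and grown from mouse marrow. The 3 groups used here were CS-PA/CNP, PgLPS, and control cells given neither agent, and the last entered as the level from which each agent's own change was read. The labels expand neither abbreviation and give no dose, time or animal age. The study's title sets the work in the treatment of periodontitis and hypertension with a composite hydrogel, and its design text names the comparison of macrophages cultured with one agent or the other.

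Macrophages are phagocytes that sense microbial products through Toll-like receptors. Signals from these receptors pass through NF-kB, which switches on cytokine and chemokine genes, and through interferon regulatory factors, which start interferon production and a second wave of interferon-stimulated genes. A separate program is run by the transcription factor NRF2, which is freed from its inhibitor KEAP1 by oxidative and electrophilic stress and switches on genes for glutathione synthesis, NADPH supply, quinone reduction and iron storage. Macrophages grown from marrow still divide, and strong inflammatory activation is known to stop their cell cycle.

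CS-PA/CNP libraries held 16130784 to 20082900 reads, PgLPS libraries 14992707 to 19252143 and control libraries 15570148 to 17339556, so depth was similar in the 3 groups. Each library had reads for 13227 to 13511 genes. Mitochondrial genes took 1.60% to 1.74% of the reads of CS-PA/CNP libraries, 1.07% to 1.17% of those of PgLPS libraries and 1.62% to 1.82% of those of control libraries, and the part of this difference in the results below was not tested. All 8 macrophage markers were present in every group, and their summed level (in CPM, read counts scaled to a common normalised library size) lay between 22837 and 24444 for CS-PA/CNP, between 27681 and 29893 for PgLPS and between 20028 and 21400 for control. In the contrast of the agents 5 of these 8 markers were lower with CS-PA/CNP, among them Fcgr1 (−3.55) and Adgre1 (−1.99), and Cd68 was higher (0.27). Neutrophil markers summed to 116 to 169 CPM for CS-PA/CNP, 228 to 254 CPM for PgLPS and 154 to 187 CPM for control, with 5 of 8 tested markers lower with CS-PA/CNP than with PgLPS and none higher. The 6 stromal markers summed to 0.552 to 2.10 CPM with CS-PA/CNP, where Dcn and Lum had no reads. They summed to 5.88 to 53.6 CPM with PgLPS, against 0.472 to 2.71 CPM in control. All 4 tested were lower with CS-PA/CNP than with PgLPS. The top of the PgLPS range was library 1, where Col1a1 had 21.9 CPM against 3.70 and 1.08 CPM in libraries 2 and 3. Megakaryocyte markers summed to 7.90 to 11.03 CPM for CS-PA/CNP, 13.9 to 18.6 CPM for PgLPS and 7.49 to 8.998 CPM for control, with 2 of 3 tested lower with CS-PA/CNP. The 1 dendritic cell marker tested and 1 of 4 mast cell or basophil markers were lower as well, and none of 4 B cell markers was called. Beside these counts, 30.5% of all tested genes were called lower and 30.5% higher with CS-PA/CNP than with PgLPS. The part of any of these cell types in the results was not tested. T or NK cell and erythroid markers stayed below 1 CPM in every library. In bulk libraries fewer cells of one type and less RNA per cell cannot be told apart.

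Of 11656 genes tested, 3558 (30.5%) were higher and 3551 (30.5%) were lower with CS-PA/CNP than with PgLPS (edgeR quasi-likelihood test, Benjamini-Hochberg adjusted p under 0.05). At least 2-fold differences were called for 1299 genes higher (11.1%) and 1257 lower (10.8%). The falls reached further, because 620 genes were at least 4-fold lower and 465 at least 4-fold higher. The median of the log2 fold change over all tested genes was 0.01 and the median of its size was 0.41. Against control, which both agents share as their reference, CS-PA/CNP changed 777 genes upward (6.67%) and 654 downward (5.61%), while PgLPS changed 3750 upward (32.2%) and 3683 downward (31.6%). By at least 2-fold, CS-PA/CNP changed 107 upward (0.918%) and 62 downward (0.532%), and PgLPS changed 1372 upward (11.8%) and 1468 downward (12.6%). The even split of the direct contrast, with 50.05% of calls higher, depended on the scaling: with plain library totals the median of all genes moved by 0.37 on the log2 scale and 78.3% of calls were higher. All log2 fold changes below are CS-PA/CNP over PgLPS on the TMM scale unless another contrast is named, so a positive value means a higher level with CS-PA/CNP.

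**Figure D1:**
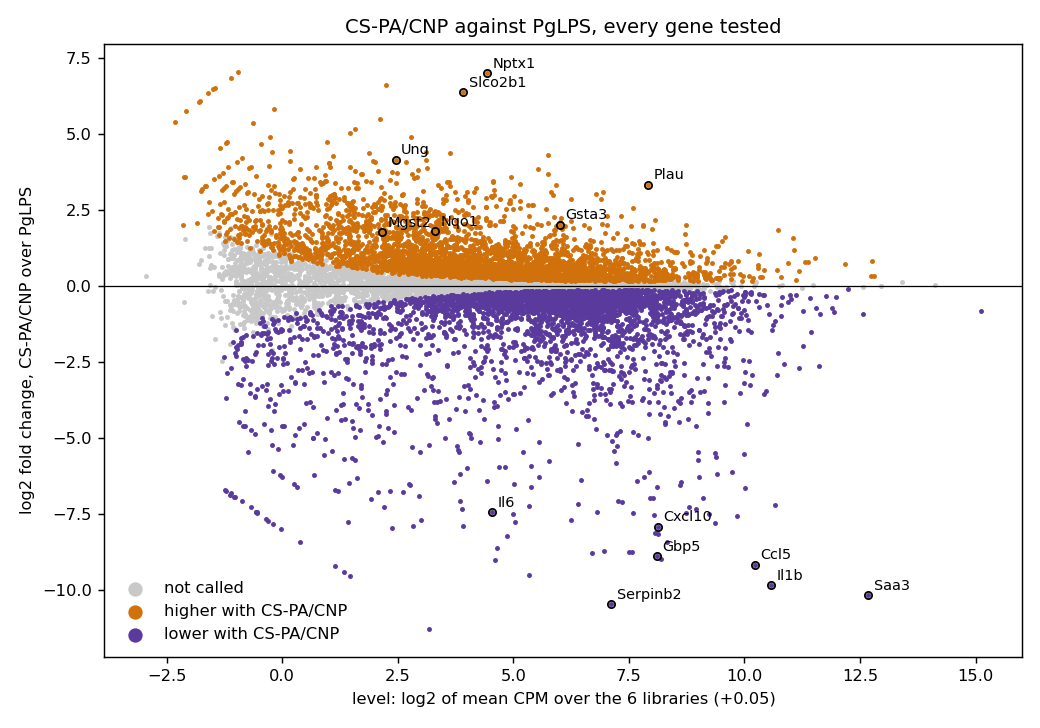
Each point is a gene, with the log2 of its mean CPM over the 6 libraries on the x axis and its log2 fold change, CS-PA/CNP over PgLPS, on the y axis. Orange points were called higher and purple points lower with CS-PA/CNP, with Serpinb2 at −10.49 and Nptx1 at 6.98. Ccl12 lies lower than Serpinb2, but it had no reads with CS-PA/CNP, so its fitted value depends on the prior count of the fit.

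The 33 gene lists were read through this contrast. Their counts of members called stand beside 30.5% of all tested genes called higher and 30.5% called lower. Against control the shares were 6.67% raised and 5.61% lowered with CS-PA/CNP, and 32.2% and 31.6% with PgLPS. The lists with the lowest medians were guanylate-binding proteins and immunity-related GTPases (−7.08), inflammatory effectors of classical activation (−4.80), interferon-stimulated genes (−4.03), chemokine ligands (−3.84) and pro-inflammatory cytokines (−3.16). Those with the highest medians were mitosis (2.18), DNA replication (2.04), growth and repair factors (1.03) and NRF2 targets (0.68).

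**Figure D2:**
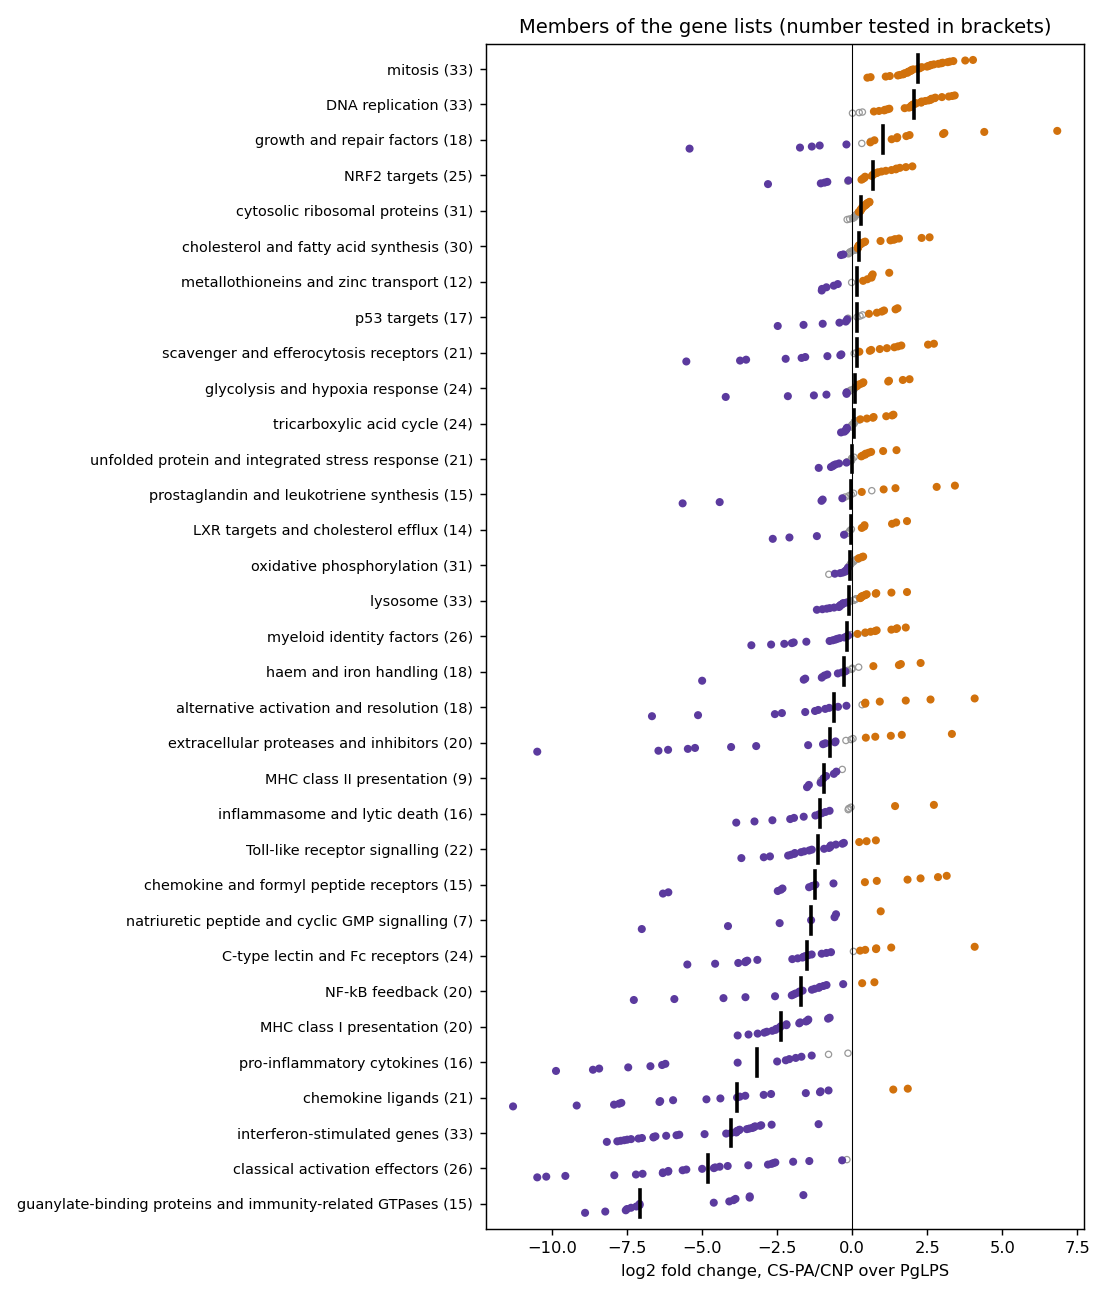
Each point is a list member at its log2 fold change, CS-PA/CNP over PgLPS (x axis), with one row per list and the number of members tested in brackets. Orange points were called higher, purple points lower, open points were not called, and the black bar is the list median, which runs from −7.08 for guanylate-binding proteins and immunity-related GTPases to 2.18 for mitosis.

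Inflammatory cytokines were mostly higher with PgLPS than with CS-PA/CNP, which raised some of them over control. Of 16 cytokines tested, 14 were lower with CS-PA/CNP and none was higher, and all 14 were at least 2-fold lower. Against control, 4 of the 16 were raised by CS-PA/CNP (median 0.54) and all 16 by PgLPS (median 3.32). The shares of all tested genes were 6.67% and 32.2%. Il1b, which encodes interleukin-1 beta, had 2.21, 2.37 and 4.96 CPM with CS-PA/CNP, 2947, 3150 and 3091 CPM with PgLPS, and 0.105, 0.754 and 0.503 CPM in control. No CS-PA/CNP library came near a PgLPS library, yet all 3 stood above every control library. Its log2 fold change was −9.87 ± 0.19 between the agents (SE, adjusted p = 7.4e-19), and CS-PA/CNP raised it by 2.82 over control while PgLPS raised it by 12.69. Il6, the interleukin-6 gene, had 0.276, 0.162 and 0.313 CPM with CS-PA/CNP against 50.5, 41.4 and 46.1 CPM with PgLPS, and 2 reads in all 3 control libraries together. The agents differed by −7.46 ± 0.24 (adjusted p = 3.2e-15). CS-PA/CNP libraries held 15 Il6 reads, and their ratio to control was 7.22 with a counting interval of 1.68 to 65.1. Tnf, the tumour necrosis factor gene, showed the smallest gap of the 3: it had 75.5, 72.7 and 71.3 CPM with CS-PA/CNP, 213, 269 and 226 CPM with PgLPS, and 40.9, 41.8 and 44.9 CPM in control. CS-PA/CNP libraries lay between the other 2 groups without overlap, with log2 fold changes of −1.69 ± 0.08 against PgLPS (adjusted p = 1.1e-12) and 0.78 against control. Csf3, the gene of granulocyte colony-stimulating factor, had 0, 0.162 and 0.179 CPM with CS-PA/CNP and 50.7, 42.0 and 57.0 CPM with PgLPS. Il1a followed Il1b, with a log2 fold change of −8.43 ± 0.17.

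Chemokine ligands, which draw leukocytes into tissue, split in one respect. Of 21 tested, 19 were lower with CS-PA/CNP and 2 were higher, namely Cxcl14 (1.85 ± 0.10) and Cx3cl1 (1.37 ± 0.52), the second of which lost its call without CS-PA/CNP library 3 (adjusted p = 0.143) or PgLPS library 2 or 3 (0.0724 and 0.164) and stood at 2.04 without PgLPS library 1. Ccl12, a ligand for monocytes in the mouse, had no reads in the 3 CS-PA/CNP libraries and 18.7, 16.9 and 18.7 CPM with PgLPS (817 reads), which is at least 356-fold lower with CS-PA/CNP when the 0 is set to 3 reads over the group. Ccl5 had 3.92, 2.10 and 6.08 CPM with CS-PA/CNP, 2181, 2616 and 2385 CPM with PgLPS, and 0.419, 0.653 and 0.727 CPM in control. The 3 groups did not overlap in Ccl5, whose log2 fold change between the agents was −9.18 ± 0.19 (adjusted p = 2.5e-18). The neutrophil attractants Cxcl1, Cxcl2 and Cxcl3 rose over control with both agents, with lower levels for CS-PA/CNP than for PgLPS. Cxcl2 had 66.2, 65.2 and 68.9 CPM with CS-PA/CNP, 519, 468 and 560 CPM with PgLPS, and 12.2, 11.96 and 11.1 CPM in control. Its change over control was 2.51 with CS-PA/CNP and 5.45 with PgLPS. Cxcl3 behaved in the same way, at 5.58, 3.02 and 5.41 CPM with CS-PA/CNP, 395, 352 and 461 CPM with PgLPS and 0, 0.101 and 0.615 CPM in control. Cxcl1, Cxcl2, Cxcl3, Cxcl14 and Cx3cl1 were named after their values had been seen.

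The promoters of Il6 and Cxcl3 are shown because both genes stood among the PgLPS responses and both hold a kappa-B form, the DNA motif bound by NF-kB. The motif searched was GGG, any 2 bases and TTTCC, on both strands, and its match is in capitals in the 250 bases before the start site (RefSeq, GRCm38.p6, 5′ to 3′ on the gene's strand), at chr5:30012864-30013113 for Il6 and chr5:90785851-90786100 for Cxcl3, both on the plus strand.
Il6: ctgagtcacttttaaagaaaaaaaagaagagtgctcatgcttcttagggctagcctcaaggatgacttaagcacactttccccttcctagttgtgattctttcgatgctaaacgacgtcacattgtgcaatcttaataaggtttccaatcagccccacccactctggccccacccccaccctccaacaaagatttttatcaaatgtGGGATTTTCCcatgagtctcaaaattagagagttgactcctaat
Cxcl3: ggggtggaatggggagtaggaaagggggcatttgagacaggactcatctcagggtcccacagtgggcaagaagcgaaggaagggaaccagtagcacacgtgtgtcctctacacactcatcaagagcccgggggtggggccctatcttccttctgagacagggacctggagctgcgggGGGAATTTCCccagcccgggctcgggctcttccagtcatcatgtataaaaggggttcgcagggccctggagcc
The match began 44 bases before the start of Il6 and 73 bases before that of Cxcl3. In the RefSeq windows of 250 bases before to 50 after each start, the form was found in 1.63% of all 32851 promoters and 1.76% of those of tested genes. It was found in 3 of 12 cytokine promoters, 4 of 15 chemokine promoters (26.7%) and 7 of 22 promoters of the NF-kB feedback list (31.8%). Of 960 promoters of genes raised by PgLPS and not by CS-PA/CNP, only 22 (2.29%) held it, near the share of tested genes. In the list of interferon-stimulated genes 0 of 30 promoters did. The counts were 1 of 10 for guanylate-binding proteins and immunity-related GTPases and 2 of 19 for MHC class I presentation. A match describes the letters only and shows no binding.

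Interferon-stimulated genes were lower with CS-PA/CNP than with PgLPS throughout the list. All 33 tested were lower with CS-PA/CNP, each by at least 2-fold, and all 33 were raised by PgLPS over control (median 4.35), against 11 raised by CS-PA/CNP (median 0.24). Of all tested genes, PgLPS raised 32.2% over control and CS-PA/CNP 6.67%. Rsad2, which encodes the antiviral enzyme viperin, had 9.99, 7.71 and 10.6 CPM with CS-PA/CNP, 1941, 1833 and 1718 CPM with PgLPS, and 6.23, 6.79 and 5.54 CPM in control. The CS-PA/CNP libraries lay just above control and far below PgLPS, with log2 fold changes of −7.59 ± 0.10 against PgLPS (adjusted p = 1e-20) and 0.61 against control. Ifit1, whose product binds viral RNA, had 7.45, 5.83 and 4.82 CPM with CS-PA/CNP, 1019, 990 and 952 CPM with PgLPS and 3.46, 3.07 and 3.47 CPM in control. Irf7, a regulator that amplifies interferon production, differed by −6.20 ± 0.08, and Zbp1, a nucleic acid sensor, by −6.61 ± 0.08. The smallest difference in the list was −1.12 for Irf9, a subunit of the interferon-activated factor ISGF3. Several of the largest falls of the whole contrast belong to interferon-inducible families that lie in clusters. Ifi208, Ifi206 and Ifi205 on chromosome 1, members of the family of PYHIN sensors, differed by −9.52, −8.77 and −8.17, and Slfn4 and Slfn1 on chromosome 11 by −8.99 and −8.81.

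Guanylate-binding proteins and immunity-related GTPases, which attack vacuoles that hold microbes, were lower with CS-PA/CNP in 15 of 15 tested. Gbp5 had 0.883, 0.755 and 1.70 CPM with CS-PA/CNP, 576, 554 and 523 CPM with PgLPS, and 0.105, 0.251 and 0.671 CPM in control. The agents' libraries were far apart, at −8.90 ± 0.16 (adjusted p = 5e-19), while the CS-PA/CNP libraries lay above all 3 control libraries by a small absolute amount. PgLPS raised all 15 over control and CS-PA/CNP raised 3. Presentation of antigen on MHC class I followed the same direction, with 20 of 20 genes lower with CS-PA/CNP (median −2.39). These include Tap1, the peptide transporter (−3.15), Tapbp, which loads peptide (−2.66), and Nlrc5, the transactivator of the class (−2.93). MHC class II genes differed less, with 7 of 9 lower and a median of −0.96 (5 lower and −0.58 with library totals). H2-Ab1 had 95.1, 85.3 and 102 CPM with CS-PA/CNP, 254, 263 and 285 CPM with PgLPS, and 83.4, 90.7 and 95.8 CPM in control. CS-PA/CNP libraries overlapped control and stayed clear of PgLPS.

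Promoters of 4 of these genes are shown because they are among the largest interferon-type differences and each holds the core of the interferon-stimulated response element, searched as GAAA, any 2 bases and GAAA on both strands and printed in capitals. The windows are the 250 bases before the start site (RefSeq, GRCm38.p6), at chr3:142496684-142496933 on the plus strand for Gbp5, chr1:173673415-173673664 on the plus strand for Ifi208, chr19:34640639-34640888 on the plus strand for Ifit1 and chr12:26456453-26456702 on the minus strand for Rsad2.
Gbp5: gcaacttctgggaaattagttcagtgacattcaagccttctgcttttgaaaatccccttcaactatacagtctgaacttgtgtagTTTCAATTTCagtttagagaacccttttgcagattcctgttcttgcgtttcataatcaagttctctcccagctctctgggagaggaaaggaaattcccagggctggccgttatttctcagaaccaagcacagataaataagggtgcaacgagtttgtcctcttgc
Ifi208: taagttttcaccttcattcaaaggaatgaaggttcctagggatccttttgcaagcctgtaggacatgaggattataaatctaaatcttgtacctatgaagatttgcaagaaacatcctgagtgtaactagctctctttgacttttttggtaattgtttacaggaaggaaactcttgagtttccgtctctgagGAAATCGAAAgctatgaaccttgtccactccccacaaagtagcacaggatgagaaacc
Ifit1: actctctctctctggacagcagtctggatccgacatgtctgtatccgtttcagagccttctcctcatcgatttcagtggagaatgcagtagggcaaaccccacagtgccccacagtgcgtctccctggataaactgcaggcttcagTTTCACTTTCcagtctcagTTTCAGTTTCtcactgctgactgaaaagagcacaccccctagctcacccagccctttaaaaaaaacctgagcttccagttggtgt
Rsad2: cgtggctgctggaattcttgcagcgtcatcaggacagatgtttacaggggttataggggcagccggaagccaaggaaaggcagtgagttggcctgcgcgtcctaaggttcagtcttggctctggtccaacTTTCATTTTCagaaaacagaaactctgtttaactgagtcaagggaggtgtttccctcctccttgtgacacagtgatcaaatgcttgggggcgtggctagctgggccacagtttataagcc
Ifit1 held 2 matches and the others 1 each, between 58 and 165 bases before the start. The window of Gbp5 also held the kappa-B form, which is not in capitals here. Over the full windows of 300 bases, the core was present in 3.44% of all promoters and 3.32% of those of tested genes. It was present in 16 of 30 promoters of the interferon-stimulated list (53.3%), in 9 of 10 promoters of guanylate-binding proteins and immunity-related GTPases (90.0%) and in 5 of 19 of the MHC class I list (26.3%). Of 960 promoters of genes raised by PgLPS and not by CS-PA/CNP, 98 (10.2%) held it. None of the 29 NRF2 target promoters did, but at a share of 3.32% few matches would be found in so small a set.

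Components that receive and restrain the Toll-like receptor signal were also mostly lower with CS-PA/CNP. Of 22 signalling genes, 19 were lower and 3 higher (median −1.14), or 16 and 3 with library totals (median −0.77). PgLPS raised 18 of the 22 over control while CS-PA/CNP raised 2. Tlr2, a receptor for bacterial lipoproteins, was one of those: it had 121, 112 and 120 CPM with CS-PA/CNP, 458, 444 and 442 CPM with PgLPS, and 61.0, 63.1 and 64.1 CPM in control. The 3 groups were separate, and Tlr2 rose by 0.91 over control with CS-PA/CNP and by 2.84 with PgLPS. Cd14, the co-receptor for lipopolysaccharide, had 262, 252 and 275 CPM with CS-PA/CNP, 1921, 2161 and 2002 CPM with PgLPS, and 269, 311 and 309 CPM in control. CS-PA/CNP libraries overlapped control here. In the NF-kB feedback list, 18 of 20 genes were lower and 2 higher with CS-PA/CNP. Over control, CS-PA/CNP raised 11 and PgLPS 18, beside 6.67% and 32.2% of all tested genes. Nfkbia, which encodes the inhibitor IkB-alpha and is an early NF-kB target, had 187, 183 and 189 CPM with CS-PA/CNP, 610, 682 and 617 CPM with PgLPS, and 79.0, 91.4 and 92.5 CPM in control. It rose over control by 1.09 with CS-PA/CNP and by 2.86 with PgLPS on the log2 scale, and differed between them by −1.77 ± 0.06. Socs3, a brake on cytokine receptors, differed by −7.27 ± 0.11, and Irak3, a brake on Toll-like receptors, by −3.69 ± 0.07.

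Effector genes of classical activation were lower with CS-PA/CNP in 25 of 26 and higher in none (median −4.80), although CS-PA/CNP itself raised 15 of them over control (median 0.91), against 25 for PgLPS (median 6.05). The shares of all tested genes raised over control were 6.67% with CS-PA/CNP and 32.2% with PgLPS. Saa3, an acute-phase protein, had 7.90, 4.31 and 20.5 CPM with CS-PA/CNP, 10892, 15561 and 12945 CPM with PgLPS, and 0.524, 1.21 and 1.45 CPM in control. CS-PA/CNP libraries differed among themselves in Saa3 by several fold, but all lay above control and below PgLPS. Nos2, the inducible nitric oxide synthase, had 3 reads with CS-PA/CNP, 633 with PgLPS and 3 in control. The ratio of PgLPS to CS-PA/CNP was 276 with a counting interval of 93.9 to 1340. Cfb, complement factor B, had no reads with CS-PA/CNP or in control and 6.02, 6.04 and 4.20 CPM with PgLPS, at least 105-fold lower with CS-PA/CNP. Acod1, which makes itaconate, had 22.1, 19.8 and 23.3 CPM with CS-PA/CNP, 3277, 3222 and 3135 CPM with PgLPS, and 1.153, 2.51 and 2.74 CPM in control. It is one of the genes that CS-PA/CNP raised clearly on its own (3.35 over control), and it still differed by −7.20 ± 0.12 between the agents. Sod2, the mitochondrial superoxide dismutase, had 242, 233 and 232 CPM with CS-PA/CNP, 2517, 2729 and 2549 CPM with PgLPS and 97.6, 93.9 and 99.1 CPM in control.

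Genes that end or redirect inflammation did not form the opposite pattern. Of 18 genes of alternative activation and resolution, 11 were lower and 6 higher with CS-PA/CNP (median −0.62). With library totals 8 were lower and 7 higher (median −0.25). Il10 had 1.93, 2.43 and 1.92 CPM with CS-PA/CNP, 10.1, 11.7 and 10.1 CPM with PgLPS, and 2.46, 2.46 and 1.79 CPM in control. Arg1, which turns arginine into ornithine, had 2.43, 1.94 and 3.26 CPM with CS-PA/CNP, 96.8, 69.3 and 107 CPM with PgLPS, and 2.78, 1.21 and 1.45 CPM in control. In both genes the CS-PA/CNP libraries overlapped control, and the differences between the agents were −2.34 ± 0.18 and −5.14 ± 0.26. Il1rn, the antagonist of interleukin-1, had the largest fall of the list at −6.67 ± 0.08, and with CS-PA/CNP it fell by 0.51 relative to control. On the other side were Clec10a (4.08 ± 0.19), a lectin of alternatively activated cells, Pparg (2.61 ± 0.12), a lipid-sensing nuclear receptor, and Egr2 (1.78 ± 0.08). Pparg had 37.3, 46.2 and 43.6 CPM with CS-PA/CNP, 5.87, 7.47 and 7.38 CPM with PgLPS, and 71.3, 77.8 and 72.9 CPM in control. Both agents lay below control in Pparg, PgLPS much further.

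Inflammasome and lytic death genes were lower with CS-PA/CNP in 11 of 16 and higher in 2, the second count being 5 with library totals. Mlkl, the executioner of necroptosis, differed by −3.86 ± 0.08 and Casp4 (caspase-11), the cytosolic lipopolysaccharide sensor, by −3.26 ± 0.12. Nlrp1b, a sensor of bacterial proteases, went the other way, with 52.2, 56.0 and 49.0 CPM with CS-PA/CNP, 7.78, 6.37 and 9.60 CPM with PgLPS, and 81.7, 69.9 and 69.4 CPM in control. Of 15 genes of prostaglandin and leukotriene synthesis, 5 were higher and 5 lower with CS-PA/CNP, each 33.3% and near the 30.5% of all tested genes. With library totals 9 were higher and 4 lower, and the median of −0.03 turned to 0.34. Among its members, the inducible enzymes Ptgs2 and Ptges were lower with CS-PA/CNP (−4.42 ± 0.20 and −5.65 ± 0.12), whereas the constitutive cyclooxygenase Ptgs1 (2.81 ± 0.16) and the prostaglandin-degrading Hpgd (3.42 ± 0.31, and 4.27 without PgLPS library 3) were higher.

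Surface receptors differed in both directions within each list, as did the tested genes as a whole, of which 30.5% were called each way. Of 24 C-type lectin and Fc receptors, 17 were lower and 6 higher with CS-PA/CNP. Fcgr2b, the inhibitory Fc receptor, differed by −5.49 ± 0.07, Fcgr1, the high-affinity one, by −3.55 ± 0.07, and Clec4e, which binds mycobacterial glycolipid, by −4.57 ± 0.08. Of 15 chemokine and formyl peptide receptors, 9 were lower and 6 higher (median −1.23). The formyl peptide receptors Fpr1 and Fpr2, which detect bacterial peptides, differed by −6.12 and −6.30 and the chemokine receptor Ccr1 by −2.38, while the chemokine receptors Cx3cr1 and Cxcr4 were higher, by 2.86 ± 0.08 and 3.14 ± 0.11. Cx3cr1 had 222, 190 and 219 CPM with CS-PA/CNP, 27.5, 31.3 and 28.2 CPM with PgLPS, and 275, 263 and 271 CPM in control. Among scavenger and efferocytosis receptors 10 were higher and 9 lower of 21, led by Marco at −5.53 ± 0.09 and by Havcr2 (TIM-3) at 2.72 ± 0.11. Marco, a receptor for particles and bacteria, had 44.9, 39.5 and 45.5 CPM with CS-PA/CNP, 1729, 2154 and 2105 CPM with PgLPS, and 6.08, 6.79 and 7.16 CPM in control, so that it rose with both agents.

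Of 20 extracellular proteases and their inhibitors, 12 were lower and 5 higher with CS-PA/CNP (median −0.74). Matrix proteases Mmp13 and Mmp14 were lower with CS-PA/CNP (−6.13 ± 0.10 and −5.47 ± 0.10), as was Thbs1, a matrix protein (−6.45 ± 0.20). Serpinb2, the inhibitor of urokinase, had 0.276, 0.216 and 0.0893 CPM with CS-PA/CNP, 293, 215 and 328 CPM with PgLPS and no reads in control. Plau, which encodes urokinase itself, went the other way, with 461, 420 and 442 CPM with CS-PA/CNP, 42.8, 44.6 and 45.05 CPM with PgLPS, and 1139, 1117 and 1160 CPM in control. The 3 groups were separate for Plau, with changes from control of −1.37 with CS-PA/CNP and −4.69 with PgLPS, and the agents differed by 3.32 ± 0.06 (adjusted p = 6.3e-19). Of 18 growth and repair factors, 11 were higher and 5 lower with CS-PA/CNP. Pdgfb, a platelet-derived growth factor chain, had 230, 217 and 214 CPM with CS-PA/CNP, 22.9, 27.9 and 27.8 CPM with PgLPS, and 243, 271 and 271 CPM in control. Igf1 differed by 1.31 ± 0.06, Vegfa by 1.91 ± 0.11 and Angptl2 by 3.02 ± 0.08, while Inhba, a chain of activin A, differed by −5.42 ± 0.26.

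**Figure D3:**
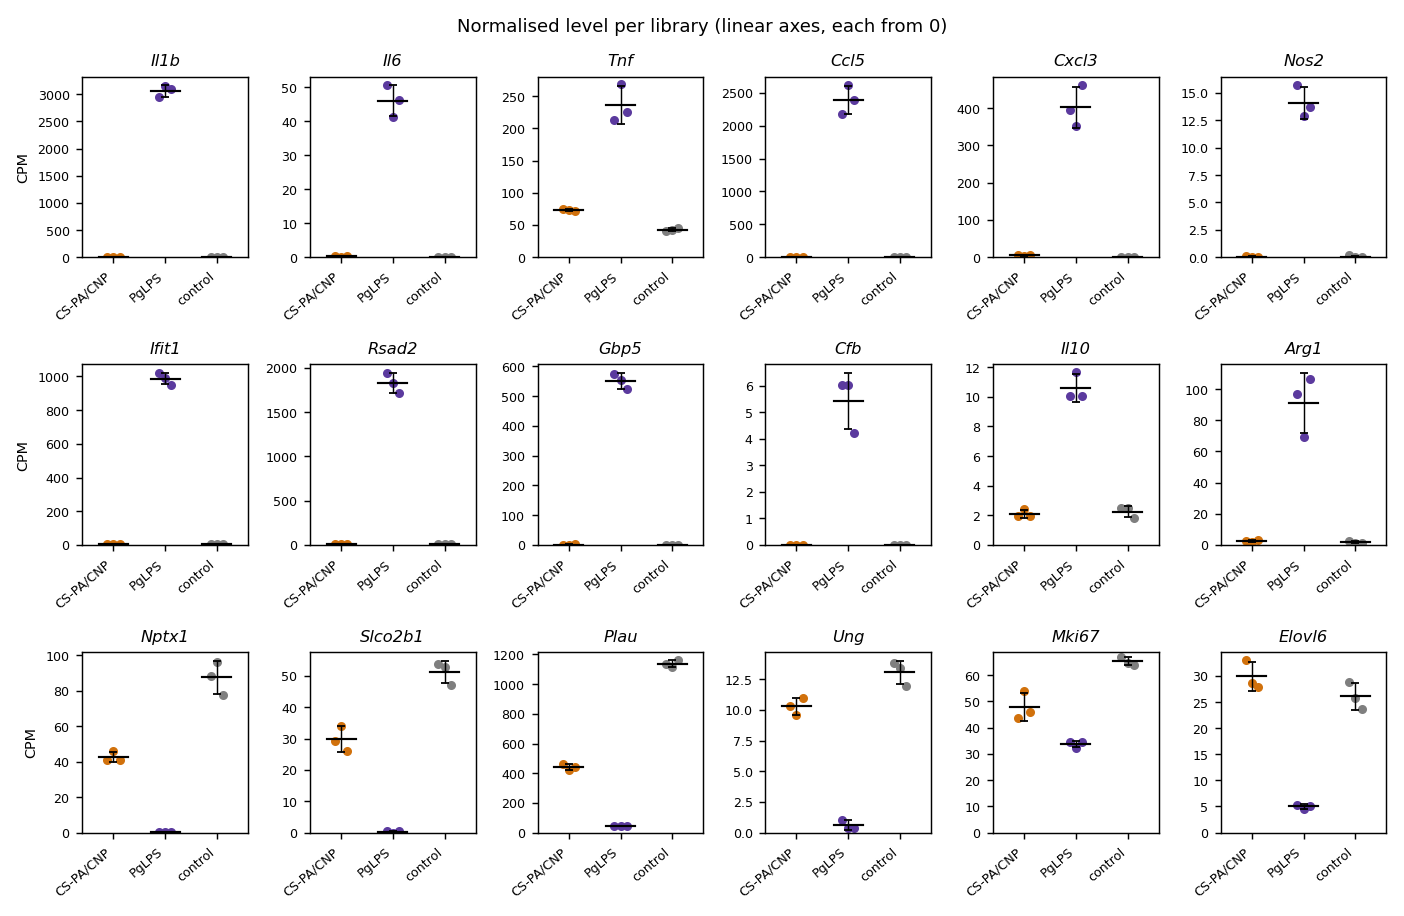
Normalised level (CPM, linear y axis from 0) of 18 genes in each library, with CS-PA/CNP at the left, PgLPS in the middle and control at the right of each panel, the group mean as a bar and the SD as an error bar. The upper 12 panels are genes higher with PgLPS, such as Il1b with at most 4.96 CPM with CS-PA/CNP and 2947 to 3150 CPM with PgLPS, and the lower 6 are genes higher with CS-PA/CNP, such as Plau and Elovl6.

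Of the 1299 genes at least 2-fold higher with CS-PA/CNP than with PgLPS, 928 were at least 2-fold lower with PgLPS than in control and not called lower with CS-PA/CNP. Of the 12 with the largest differences among genes that reached 5 CPM in the higher group and did not overlap between the agents, all 12 were lower with PgLPS than in control, and 2, Cgnl1 and Matn2, were called higher with CS-PA/CNP than in control. Nptx1, a secreted pentraxin, had 41.1, 46.1 and 41.0 CPM with CS-PA/CNP, 0.457, 0.130 and 0.420 CPM with PgLPS, and 88.5, 96.5 and 77.8 CPM in control (6.98 ± 0.22, adjusted p = 1.9e-15). Its changes from control were −1.04 with CS-PA/CNP and −8.01 with PgLPS. Slco2b1, an organic anion transporter, gave 29.3, 34.1 and 26.1 CPM with CS-PA/CNP, 0.457, 0 and 0.600 CPM with PgLPS, and 53.7, 52.9 and 47.1 CPM in control (6.37 ± 0.28, with 5.78 without PgLPS library 2 and 7.10 without PgLPS library 3). Angptl4, an inhibitor of lipoprotein lipase, had 17.0, 15.7 and 16.8 CPM with CS-PA/CNP, 0.991, 0.650 and 0.720 CPM with PgLPS, and 13.7, 17.5 and 16.6 CPM in control. CS-PA/CNP and control overlapped for Angptl4. Cgnl1, which encodes a protein of cell junctions, was raised by one agent and lowered by the other: it had 115, 90.3 and 101 CPM with CS-PA/CNP, 4.12, 4.48 and 6.72 CPM with PgLPS, and 62.9, 61.8 and 63.6 CPM in control. Its change over control was 0.70 with CS-PA/CNP and −3.60 with PgLPS.

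Cell cycle genes were higher with CS-PA/CNP almost throughout. Of 33 DNA replication genes, 30 were higher with CS-PA/CNP and none lower, and of 33 mitosis genes all 33 were higher. PgLPS lowered all 33 of each list below control, with medians of −2.46 and −2.40, and CS-PA/CNP lowered 19 replication and 10 mitosis genes, with medians of −0.40 and −0.37, and raised none. Of all tested genes, PgLPS lowered 31.6% and CS-PA/CNP 5.61%. Mcm5, a subunit of the replicative helicase, had 96.3, 107 and 103 CPM with CS-PA/CNP, 11.5, 16.4 and 10.8 CPM with PgLPS, and 139, 145 and 132 CPM in control. The 3 groups were separate and CS-PA/CNP lay nearer to control (2.99 ± 0.11 above PgLPS and −0.44 from control). Ccna2, the S-phase and G2 cyclin, had 10.1, 12.7 and 9.16 CPM with CS-PA/CNP, 1.45, 1.75 and 0.8997 CPM with PgLPS, and 16.3, 16.9 and 12.8 CPM in control. Mki67, the proliferation marker, differed least of the mitosis list, by 0.50 ± 0.08. The DNA repair genes Ung and Fancd2 were among those lowered by PgLPS and not by CS-PA/CNP.

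Lipid synthesis genes were more often higher than lower with CS-PA/CNP. On the TMM scale the tricarboxylic acid cycle and oxidative phosphorylation stayed near or below the share of all tested genes. Of 30 genes of cholesterol and fatty acid synthesis, 17 were higher and 2 lower (median 0.21), the second count being 1 without CS-PA/CNP library 2 or 3, PgLPS library 1 or 3, or control library 2 or 3. The first count was 12 without PgLPS library 3, 14 without CS-PA/CNP library 1 and 18 without control library 1 or 3. Elovl6, a fatty acid elongase, had 33.1, 28.6 and 27.9 CPM with CS-PA/CNP, 5.34, 4.55 and 5.16 CPM with PgLPS, and 28.8, 25.7 and 23.7 CPM in control (2.58 ± 0.13). The desaturase Fads2 (2.31 ± 0.13), Fasn, the fatty acid synthase (1.43 ± 0.09), and Dhcr7 of cholesterol synthesis (1.55 ± 0.08) moved the same way. For these 4 genes the change from control was called with PgLPS and not with CS-PA/CNP. Lipa, the lysosomal lipase, had 2614, 2720 and 2553 CPM with CS-PA/CNP, 756, 746 and 727 CPM with PgLPS, and 2382, 2350 and 2357 CPM in control. Abca1, the cholesterol exporter, was lower with CS-PA/CNP, at 99.9, 109 and 91.7 CPM against 709, 514 and 659 CPM with PgLPS. In glycolysis and the hypoxia response 10 of 24 members were higher (41.7%) and 7 lower (29.2%). The first count was 8 without CS-PA/CNP library 3 or PgLPS library 1, and the second was 4 without CS-PA/CNP library 2. Of these members, Pfkfb3, an activator of glycolysis, differed by −4.21 ± 0.08 and Hif1a by −2.14 ± 0.10. In the tricarboxylic acid cycle 7 of 24 were higher (29.2%) and 6 lower (25%), against 30.5% each way over all tested genes, and Idh2, Suclg2 and Mdh1 differed by 1.37, 1.33 and 1.13. That last count was 2 without CS-PA/CNP library 1 and 3 without CS-PA/CNP library 2 or 3 or PgLPS library 2 or 3. Of 31 genes of oxidative phosphorylation 3 were higher (9.68%) and 7 lower (22.6%), none of them by 2-fold. These counts were 0 and 3 without CS-PA/CNP library 3. With library totals the median of −0.09 turned to 0.29, and 25 were higher and none lower. That scaling gave 26 higher and none lower in lipid synthesis, 19 and 4 in glycolysis and the hypoxia response, and 20 and none in the tricarboxylic acid cycle.

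What CS-PA/CNP gave and PgLPS did not was a short list. A gene was counted when CS-PA/CNP was called different from control by at least 2-fold, was called different from PgLPS by at least 2-fold in the same direction, and PgLPS was not called different from control in that direction. In all, 10 genes (0.0858% of those tested) were raised in this sense and 7 (0.0601%) lowered, against 901 (7.73%) raised and 928 (7.96%) lowered by PgLPS and not by CS-PA/CNP. The 3 contrasts share libraries. With calls alone and no condition of size, the counts were 147 raised and 117 lowered by CS-PA/CNP, and 2747 raised and 2733 lowered by PgLPS. At 4-fold, no gene was raised and 1 was lowered by CS-PA/CNP.

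Of the 10 raised genes, 4 encode enzymes of glutathione and peroxide metabolism, namely Gsta3 (chromosome 1), Mgst2 (chromosome 3), Ggt5 (chromosome 10) and Cat (chromosome 2). They were grouped after the genes had been seen, and the share of such enzymes among all tested genes was not counted. Chac1, which degrades glutathione, was among the genes lowered by CS-PA/CNP and not by PgLPS. Gsta3, a glutathione S-transferase, had 104, 96.2 and 109 CPM with CS-PA/CNP, 27.4, 24.0 and 25.9 CPM with PgLPS, and 25.8, 26.7 and 26.3 CPM in control. Every CS-PA/CNP library lay above every other library, and PgLPS and control overlapped, with log2 fold changes of 2.002 ± 0.08 against PgLPS (adjusted p = 3.2e-14) and 1.97 against control. Mgst2, a microsomal glutathione transferase, had 6.18, 6.36 and 7.91 CPM with CS-PA/CNP, 2.82, 1.69 and 1.62 CPM with PgLPS, and 2.67, 2.31 and 2.85 CPM in control. Ggt5, which splits glutathione conjugates, had 4.91, 5.34 and 5.58 CPM with CS-PA/CNP, 1.14, 1.17 and 1.68 CPM with PgLPS, and 1.89, 1.81 and 2.46 CPM in control. Cat, the catalase gene, was raised by CS-PA/CNP (1.06) and lowered by PgLPS (−0.52): it had 1192, 1107 and 1141 CPM with CS-PA/CNP, 383, 365 and 398 CPM with PgLPS, and 550, 534 and 560 CPM in control. In all, 4 of the 10 were called lower by PgLPS than in control. Panx1, a channel that releases ATP, had 80.8, 90.5 and 83.5 CPM with CS-PA/CNP, 31.5, 34.2 and 27.8 CPM with PgLPS, and 31.3, 38.4 and 36.2 CPM in control. Pir, an iron-binding nuclear protein, had 8.78, 7.55 and 9.52 CPM with CS-PA/CNP, 3.20, 3.12 and 2.58 CPM with PgLPS, and 4.66, 4.52 and 3.47 CPM in control. Mturn and Afp (alpha-fetoprotein) differed by 1.53 ± 0.19 and 1.16 ± 0.13. Rnf183 and Rsph9, below 5 CPM in every group, completed the 10 and were named after their values had been seen, and Rsph9 lost its call without PgLPS library 2 (adjusted p = 0.0549).

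**Figure D4:**
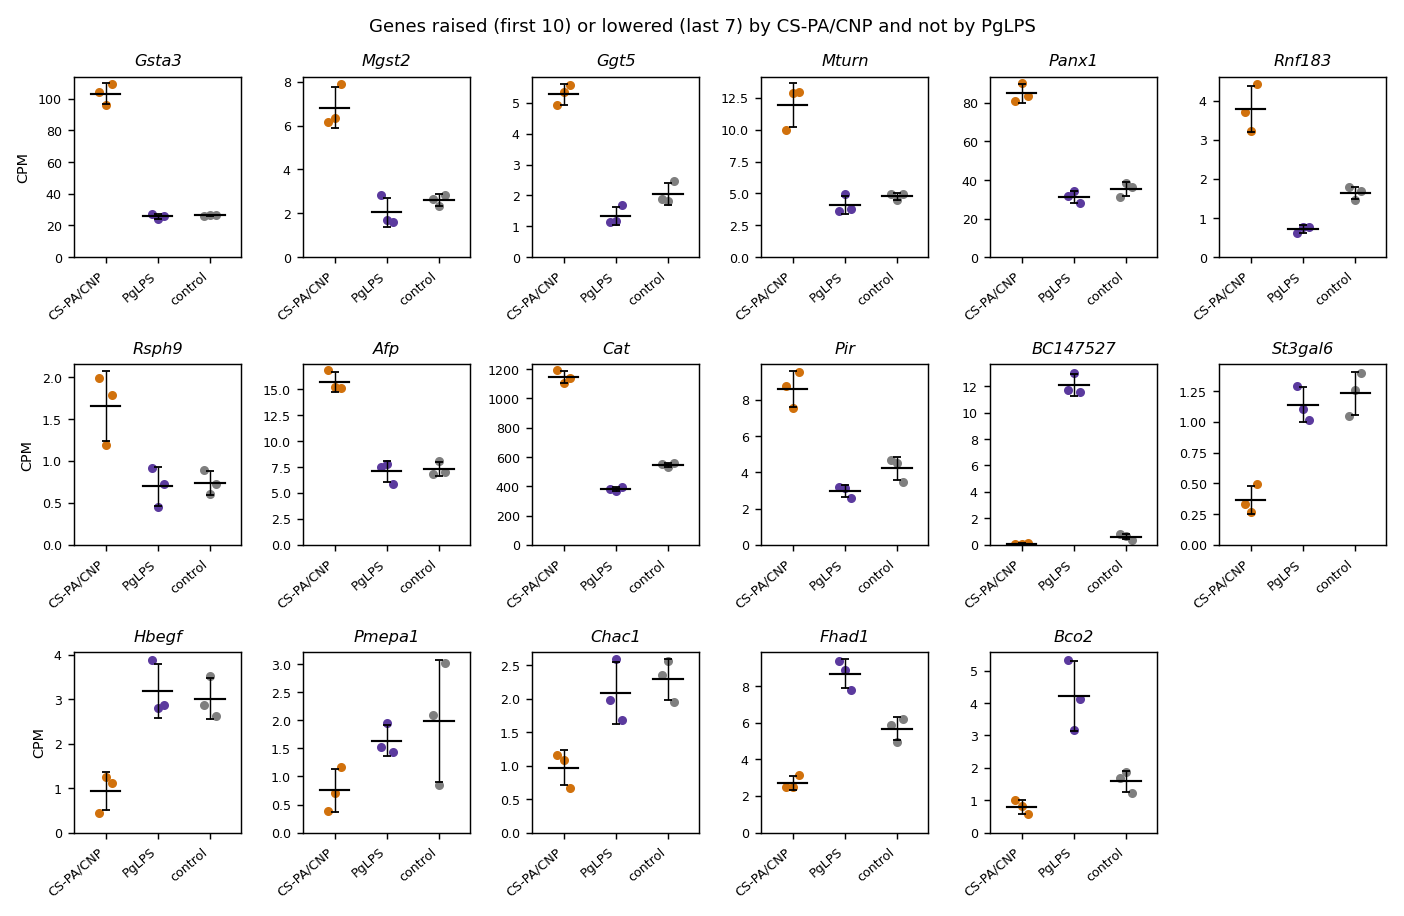
Level in each library (CPM, linear y axis from 0) of the 10 genes raised and then the 7 genes lowered by CS-PA/CNP and not by PgLPS, with CS-PA/CNP at the left, PgLPS in the middle and control at the right, bars at the mean and error bars of 1 SD. The CS-PA/CNP points stand above the other groups in the first 10 panels, for example 96.2 to 109 CPM for Gsta3, and below PgLPS in the last 7.

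The 7 lowered genes had low levels with CS-PA/CNP, and most were low in every group. Fhad1 alone met the rule for naming, with 2.48, 2.48 and 3.13 CPM with CS-PA/CNP, 9.38, 8.90 and 7.80 CPM with PgLPS, and 5.87, 4.98 and 6.21 CPM in control. The others were named after their values had been seen. Hbegf, a growth factor that activates the EGF receptor, had 0.442, 1.24 and 1.12 CPM with CS-PA/CNP, 3.89, 2.79 and 2.88 CPM with PgLPS, and 2.88, 3.52 and 2.63 CPM in control (−1.74 ± 0.32 against PgLPS, adjusted p = 0.0001). PgLPS and control overlapped, and all CS-PA/CNP libraries lay below both. Chac1, which degrades glutathione, had 1.16, 1.08 and 0.670 CPM with CS-PA/CNP, 1.98, 2.60 and 1.68 CPM with PgLPS, and 2.36, 2.56 and 1.96 CPM in control. St3gal6, a sialyltransferase, and Bco2, which cleaves carotenoids, differed from PgLPS by −1.60 ± 0.44 and −2.41 ± 0.30. BC147527 differed by −6.80 ± 0.30 (−7.59 without CS-PA/CNP library 3), with PgLPS raising it over control by 4.28. Pmepa1 (−1.09 ± 0.45, adjusted p = 0.0449) lost its call without CS-PA/CNP library 1 or 2, any PgLPS library or control library 1, with adjusted p from 0.0566 to 0.167, and with library totals (0.16).

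NRF2 targets rose with CS-PA/CNP almost throughout the list. Of 25 tested, 24 were raised by CS-PA/CNP over control and none lowered (median 0.85), whereas PgLPS raised 13 and lowered 7 (median 0.17). Of all tested genes, CS-PA/CNP raised 6.67%, and PgLPS raised 32.2% and lowered 31.6%. In the direct contrast 19 were higher and 5 lower with CS-PA/CNP, 7 and 2 of them by at least 2-fold. The 19 higher members include Gsta3, Gclm and Gclc of glutathione transfer and synthesis, Taldo1, Nqo1 and the ferritin chain Ftl1, and the 5 lower were Slc7a11, Gsr, Hmox1, Fth1 and Prdx1. Nqo1, a quinone reductase, had 15.2, 13.9 and 16.8 CPM with CS-PA/CNP, 4.65, 4.29 and 4.38 CPM with PgLPS, and 3.82, 3.12 and 2.18 CPM in control (1.79 ± 0.18, adjusted p = 5.6e-08). Gclm, the modifier subunit of the enzyme that limits glutathione synthesis, had 718, 659 and 702 CPM with CS-PA/CNP, 346, 339 and 372 CPM with PgLPS, and 263, 262 and 270 CPM in control. On the TMM scale both genes rose with both agents, more with CS-PA/CNP, and the groups did not overlap. The TMM factors were lower for PgLPS than for control libraries, which lifts PgLPS levels relative to control. Whether Gclm rose over control with PgLPS under library totals was not tested. Srxn1, which repairs peroxiredoxins, had 523, 482 and 516 CPM with CS-PA/CNP, 216, 235 and 249 CPM with PgLPS, and 251, 257 and 267 CPM in control. Gclc, the catalytic partner of Gclm, went in opposite directions from control, with 0.28 for CS-PA/CNP and −1.03 for PgLPS. So did Taldo1 of the pentose phosphate pathway, at 0.68 and −0.78, and Cbr3, a carbonyl reductase, at 0.95 and −0.52.

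Those 5 members were raised over control by both agents. Slc7a11, the cystine transporter, had 39.6, 34.1 and 33.4 CPM with CS-PA/CNP, 281, 188 and 279 CPM with PgLPS, and 12.7, 8.75 and 10.1 CPM in control (−2.81 ± 0.17, adjusted p = 4.9e-11). Hmox1, haem oxygenase 1, had 2353, 2020 and 2210 CPM with CS-PA/CNP, 3840, 4225 and 4412 CPM with PgLPS, and 1300, 1393 and 1435 CPM in control. The 3 groups were separate for both genes. Fth1, the heavy ferritin chain, differed by −0.83 ± 0.07, but its light partner Ftl1 by 0.70 ± 0.09, and Ftl1 was raised by CS-PA/CNP (0.47) and lowered by PgLPS (−0.23) relative to control. Gsr, glutathione reductase, had 244, 221 and 238 CPM with CS-PA/CNP, 482, 483 and 489 CPM with PgLPS, and 126, 128 and 132 CPM in control. Prdx1, a peroxiredoxin, rose with both agents by nearly the same amount, 1.22 over control with CS-PA/CNP and 1.35 with PgLPS. Its difference between the agents, −0.13 with a 95% interval of −0.24 to −0.02 (adjusted p = 0.0454), turned to 0.25 with library totals, and its call was lost in most fits that left out a library, with adjusted p up to 0.218. Blvrb, biliverdin reductase B, rose over control by 0.94 with CS-PA/CNP and by 1.09 with PgLPS, and its difference of −0.15 (adjusted p = 0.17) was not called and turned to 0.23 with library totals.

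**Figure D5:**
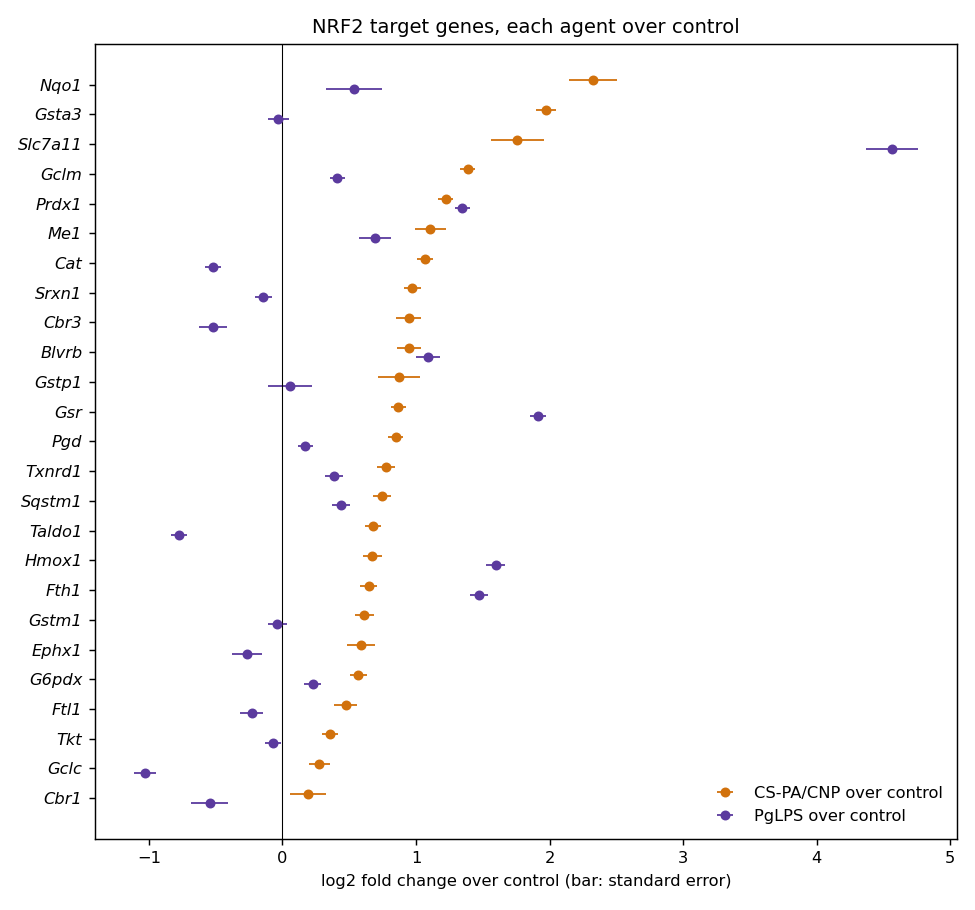
Log2 fold change over control (x axis) of each of the 25 NRF2 targets tested, with CS-PA/CNP in orange above PgLPS in purple and bars of 1 standard error. The orange points lie right of 0 for all 25, from Nqo1 at 2.32 downward, while the purple points reach from −1.03 for Gclc to 4.57 for Slc7a11.

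Promoters of 3 genes that CS-PA/CNP raised are shown with the core of the antioxidant response element, the site bound by NRF2, searched as TGACNNNGC on both strands and printed in capitals. The windows are the 250 bases before the start site on the plus strand (RefSeq, GRCm38.p6), at chr1:21240335-21240584 for Gsta3, chr3:122245307-122245556 for Gclm and chrX:164269181-164269430 for Pir.
Gsta3: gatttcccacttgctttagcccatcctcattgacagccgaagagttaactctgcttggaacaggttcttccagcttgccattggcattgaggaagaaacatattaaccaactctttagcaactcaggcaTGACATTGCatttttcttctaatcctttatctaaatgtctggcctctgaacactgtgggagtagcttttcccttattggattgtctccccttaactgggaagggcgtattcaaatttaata
Gclm: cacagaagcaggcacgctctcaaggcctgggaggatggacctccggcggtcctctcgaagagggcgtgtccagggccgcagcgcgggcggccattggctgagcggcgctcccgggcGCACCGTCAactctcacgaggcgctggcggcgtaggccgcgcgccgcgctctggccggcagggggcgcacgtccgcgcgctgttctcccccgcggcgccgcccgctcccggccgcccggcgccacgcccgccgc
Pir: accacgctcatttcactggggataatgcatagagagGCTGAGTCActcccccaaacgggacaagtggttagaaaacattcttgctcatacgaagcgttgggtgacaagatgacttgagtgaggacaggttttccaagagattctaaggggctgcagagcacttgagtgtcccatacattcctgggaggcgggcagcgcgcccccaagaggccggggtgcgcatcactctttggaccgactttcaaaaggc
Over the full windows, this short core was in 12.4% of all promoters and 14.6% of those of tested genes, and in 8 of 29 NRF2 target promoters (27.6%). Among the other lists searched, its share ran from 0% for pro-inflammatory cytokines to 27.6% for mitosis (8 of 29), so it did not single out NRF2 targets. The window of Rsad2 printed above held this core as well. Among genes raised by CS-PA/CNP and not by PgLPS, 2 of 10 promoters held it. The kappa-B form and the interferon core were found in none of those 10. Since they were in only 1.76% and 3.32% of promoters of tested genes, this absence says little. Of 7 promoters of genes lowered by CS-PA/CNP and not by PgLPS, 2 held the interferon core.

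Pcx and Acss2 were among the other genes that rose over control with both agents. Pcx, pyruvate carboxylase, had 8.39, 9.38 and 9.16 CPM with CS-PA/CNP, 8.84, 7.60 and 6.78 CPM with PgLPS, and 3.51, 3.67 and 3.47 CPM in control. Acss2, which makes acetyl-CoA from acetate, had 11.5, 8.85 and 11.1 CPM with CS-PA/CNP, 7.32, 10.7 and 7.62 CPM with PgLPS, and 2.20, 3.27 and 3.97 CPM in control. The agents' libraries overlapped in both. The difference between the agents was 0.22 for Pcx and 0.30 for Acss2, with 95% intervals of −0.09 to 0.53 and −0.05 to 0.65, and neither was called (adjusted p = 0.2 and 0.13). With library totals both were called, at 0.59 for Pcx and 0.67 for Acss2, and Acss2 was also called without PgLPS library 2, at 0.49. Both were named after their values had been seen.

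Of 21 genes of the unfolded protein and integrated stress response, 8 were higher (38.1%) and 7 lower (33.3%) with CS-PA/CNP, near the 30.5% each way of all tested genes, and with library totals 15 were higher and 4 lower and the median of −0.02 turned to 0.35. Among single members, 2 lay on opposite sides of control with the agents. Calr, a chaperone of the endoplasmic reticulum, had 1686, 1696 and 1742 CPM with CS-PA/CNP, 850, 840 and 822 CPM with PgLPS, and 953, 1023 and 1050 CPM in control. Sdf2l1, another protein of that compartment, had 151, 151 and 167 CPM with CS-PA/CNP, 49.5, 58.0 and 60.9 CPM with PgLPS, and 89.2, 97.7 and 101 CPM in control. For both, CS-PA/CNP lay above control and PgLPS below it without overlap. Atf4, the transcription factor of the integrated stress response, differed by −0.55 ± 0.05 and was not called between CS-PA/CNP and control. Iron handling showed Slc40a1, the iron exporter ferroportin, at 237, 311 and 252 CPM with CS-PA/CNP, 58.3, 50.6 and 56.2 CPM with PgLPS, and 186, 209 and 188 CPM in control. Tfrc, the transferrin receptor, differed by 1.62 ± 0.09 and Lcn2, which binds bacterial siderophores, by −5.00 ± 0.13. Of 18 genes in that list 4 were higher and 9 lower, and its median of −0.28 turned to 0.09 with library totals, where 9 were higher and 6 lower. Zinc transporters and metallothioneins split into 6 higher and 5 lower of 12, and p53 targets into 6 and 6 of 17 (10 and 3 with library totals), where Fas, the death receptor, differed by −2.48 ± 0.10. Lysosomal genes split into 12 higher and 14 lower of 33, which became 20 and 4 with library totals as the median turned from −0.09 to 0.28. Cytosolic ribosomal proteins were higher in 18 of 31 by at most 0.57, and in 30 with library totals.

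Genes of natriuretic peptide, endothelin and cyclic GMP signalling, which govern vascular tone, were mostly too low to test: 7 of 20 passed. Of these, 6 were lower with CS-PA/CNP and 1 was higher, and PgLPS had raised 6 over control. Edn1, the endothelin-1 gene, had 3 reads with CS-PA/CNP, 338 with PgLPS and none in control. The ratio of PgLPS to CS-PA/CNP was 147 with a counting interval of 49.9 to 717. Ednrb, an endothelin receptor, rose with both agents, with 10.05, 10.8 and 13.3 CPM with CS-PA/CNP, 28.2, 31.6 and 28.9 CPM with PgLPS, and 2.04, 1.06 and 2.41 CPM in control. All 3 groups were separate, with −1.37 ± 0.13 between the agents and 2.65 over control for CS-PA/CNP. Pde5a, which degrades cyclic GMP, differed by −2.42 ± 0.26.

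Of the 901 genes raised by PgLPS and not by CS-PA/CNP, 31 were called lower than control with CS-PA/CNP, and the median change over control was 0.05 with CS-PA/CNP and 2.10 with PgLPS. Of the 928 lowered by PgLPS and not by CS-PA/CNP, 17 were called higher than control with CS-PA/CNP, and the medians were −0.12 and −1.84. Beyond genes already described, those with the largest changes included Ms4a4c, with 0.663, 0.539 and 1.21 CPM with CS-PA/CNP against 375, 392 and 315 CPM with PgLPS, and Apol9b. Among lowered genes they included Epas1, which encodes HIF-2 alpha, with 15.6, 14.5 and 12.7 CPM with CS-PA/CNP, 1.07, 1.49 and 0.540 CPM with PgLPS, and 16.3, 16.0 and 18.5 CPM in control, and the ribonuclease gene Rnase6 (3.67 ± 0.37, and 4.39 without PgLPS library 1). Klhl3, a substrate adaptor of a cullin ubiquitin ligase, had 10.2, 10.2 and 7.33 CPM with CS-PA/CNP, 0, 0.130 and 0.120 CPM with PgLPS, and 10.9, 12.3 and 10.5 CPM in control. Col1a1, a stromal collagen gene in the raised set, rested on uneven libraries: it had 0.110, 0.701 and 0.536 CPM with CS-PA/CNP, 21.9, 3.70 and 1.08 CPM with PgLPS, and 0.314, 1.11 and 0.895 CPM in control, and its log2 fold change of −4.23 was −2.36 without PgLPS library 1.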

How the data were processed

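The authors deposited raw read counts for 21899 genes, as integers without scaling, and these were the values used. A further 12 columns, which hold FPKM per the file headers, were not used. The submitters' processing notes list DESeq 1.30.0, HTSeq 0.9.1, HISAT2 2.0.5 and cutadapt 1.15 in no order of use. Build, annotation and strandedness: not given in the sources used here. Reads of overlapping or antisense genes therefore cannot be told apart, and coordinates from the count table are not printed. Per the labels' protocols, fragments were enriched by PCR and read on a NovaSeq instrument.

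Count columns were assigned to groups by their letters (M as CS-PA/CNP, L as PgLPS, C as control). Library numbers in the text are those of the columns, which could not be matched to the titles. The samples are called biological replicates in the labels, with no word on whether animals or cultures were separate, so each p-value reflects only how far these libraries vary, and that variation may be technical.

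edgeR 4.0.16 in R 4.3.3 fitted all 12 libraries at once, with a mean per group, TMM factors (CS-PA/CNP 1.11 to 1.12, PgLPS 0.853 to 0.875, control 1.15 to 1.16) and the filterByExpr filter, which kept 11656 genes with 99.97% of reads. Tests were 2-sided, with Benjamini-Hochberg adjustment over all tested genes and a threshold of 0.05. Errors are standard errors, and intervals of a difference are 95% intervals from the same fit. CPM are counts over library total times TMM factor. A group with no reads was set to 3 reads over its 3 libraries for a bound on the fold, which is 0.0508 CPM for CS-PA/CNP, 0.0664 CPM for PgLPS and 0.0528 CPM for control. With 1 to 3 reads the ratio has an exact 95% counting interval. Both cover counting error only, since PCR reads are not independent molecules. The list medians were the same with genes at their bound. The fit was tested on simulated data.

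The gene lists and named genes were chosen with earlier results of these data known. The rule named the 12 largest rises and 12 largest falls among genes whose higher group reached 5 CPM and whose libraries did not overlap between the agents, up to 10 genes of each set given by 1 agent, the 5 members of each list with the smallest adjusted p, and, as a fixed set, Arg1, Il10, Il1b, Il6, Nos2 and Tnf. It left out Gm, Rik and clone names, pseudogenes and receptor segments. Named after their values had been seen were Acod1, Acss2, BC147527, Bco2, Blvrb, Cbr3, Chac1, Col1a1, Cx3cl1, Cxcl1, Cxcl2, Cxcl3, Cxcl14, Fasn, Fth1, Ftl1, Gclc, Gclm, Hbegf, Hmox1, Hpgd, Irf9, Mki67, Nfkbia, Nqo1, Pcx, Pmepa1, Prdx1, Rnf183, Rsph9, Slc7a11 and St3gal6. Promoters were matched by symbol to RefSeq (GRCm38.p6), where 9381 of 11655 tested symbols were found. DESeq2 1.42.0, other scalings and filters, a replicate block and leaving out each library of the 3 groups compared were tried, while the 3 libraries with both agents stayed in.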

Additional observations from a re-analysis of the deposited data

How the results depend on the processing

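With DESeq2 size factors in edgeR, with DESeq2 itself, with no filter on low counts and with a fit of the compared groups alone, each count of the direct contrast and of the sets given by 1 agent stayed within 1.5 times its reported value. Plain library totals moved the most: 6760 genes were higher and 1873 lower with CS-PA/CNP, 2154 were at least 2-fold higher, and 1570 were lowered by PgLPS and not by CS-PA/CNP. Of the 7109 genes called in the direct contrast, 5431 kept call and direction with library totals and 870 took the opposite sign. That scaling turned Atp5b to 0.15, Cox7a2 to 0.0618, Prdx1 to 0.25 and Blvrb to 0.23. For gene lists and named genes, only the contrast of the agents was read under other scalings. Their changes over control were read on the TMM scale alone. Without a condition of size the sets given by 1 agent held 147 and 117 genes raised and lowered by CS-PA/CNP and 2747 and 2733 raised and lowered by PgLPS, and at 4-fold they held 0, 1, 436 and 319, which follows from the condition itself. Leaving out 1 library gave 3258 to 3645 genes higher and 3222 to 3494 lower, 1303 to 1329 and 1230 to 1272 by at least 2-fold, 9 to 14 and 5 to 8 raised and lowered by CS-PA/CNP alone, and 883 to 939 and 911 to 1029 by PgLPS alone. With 1 library of a group left out, 2 remained in it, and the fit pools the spread over all groups. Of the named genes' values under all alternatives, 3590 kept direction and side of the threshold, 32 lost the call, 4 gained it and 4 reversed. Most named genes were picked for large differences or small adjusted p, so these counts do not stand for all tested genes. Same-numbered libraries of the agents correlated in their deviations by 0.149, 0.0478 and −0.0183, and not every library correlated best with its own number, so the numbers were not taken to pair them. A fit with the replicate number as a block gave 3757 genes higher and 3761 lower. Depth limits the genes with few reads, such as Cfb, Nos2 and Edn1, to bounds and wide intervals.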
